A study of Mus musculus with 15 samples.

Results

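Cytosine methylation was followed in 102 windows of 1 kb whose mean level lay between 30% and 70% and differed little from mouse to mouse, out of 5180 autosomal windows that could be measured. A window was measured when at least 5 of its CpG rows, each row being 1 cytosine on 1 strand, held a value in all 15 mice. The value of a window in a mouse was the mean percent methylation of those rows. After the mean of each housing group was subtracted, the SD over the mice, with 12 degrees of freedom, had to lie under 8 percentage points. The 102 windows were thus chosen by their own mean and spread, and neither value is a finding here. They are called stable windows below.

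The mice were female C57BL/6JRj animals aged 7.5 months, and the DNA came from the dentate gyrus, the part of the hippocampus in which new neurons are born in adult life. The standard group (n = 5) lived in standard housing throughout. The enriched group (n = 5) spent 6 months in environmental enrichment, meaning larger cages with varied objects, and the withdrawal group (n = 5) spent 3 months in enrichment and then 3 months in standard housing. No transgene, drug or surgery was named for any group, and the dentate gyrus DNA mixes all of its cell types. Reduced representation bisulfite sequencing (RRBS) was used, which reads short fragments from CpG-rich DNA, and the deposited values are percentages without read numbers. The depth behind each value is therefore unknown. Each mouse held between 297844 and 444106 CpG rows with a value, and 113897 of 455836 CpG rows were complete in all 15 mice.

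Most CpGs of a mammalian genome are either nearly free of methylation, as in CpG islands at gene starts, or nearly fully methylated, as in gene bodies and repeats. A level between these extremes is known from imprinted control regions, where the copies from mother and father differ, from CpG islands on the inactive X chromosome of females, from loci that differ between cell types of a tissue, and from the edges between methylated and unmethylated DNA. A mean taken over many CpGs can also be intermediate when some sites are unmethylated and others methylated on every molecule. Percentages per site and mouse show the level of each site, but not which sites are methylated on the same molecule.

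The name half-methylated describes the mean of these windows and, in most of them, not every site. Among the 102 stable windows, 1 had every site between 30% and 70%, and 17 (16.7%) had every site between 20% and 80%. A further 30 (29.4%) combined at least 1 site under 20% with at least 1 site above 80%, 30 (29.4%) had sites under 20% and none above 80%, and 25 (24.5%) had sites above 80% and none under 20%. Of the 759 sites in these windows, 147 (19.4%) lay under 20%, 503 (66.3%) between 20% and 80%, and 109 (14.4%) above 80%. A total of 37 windows had a mean between 40% and 60%.

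**Figure D1:**
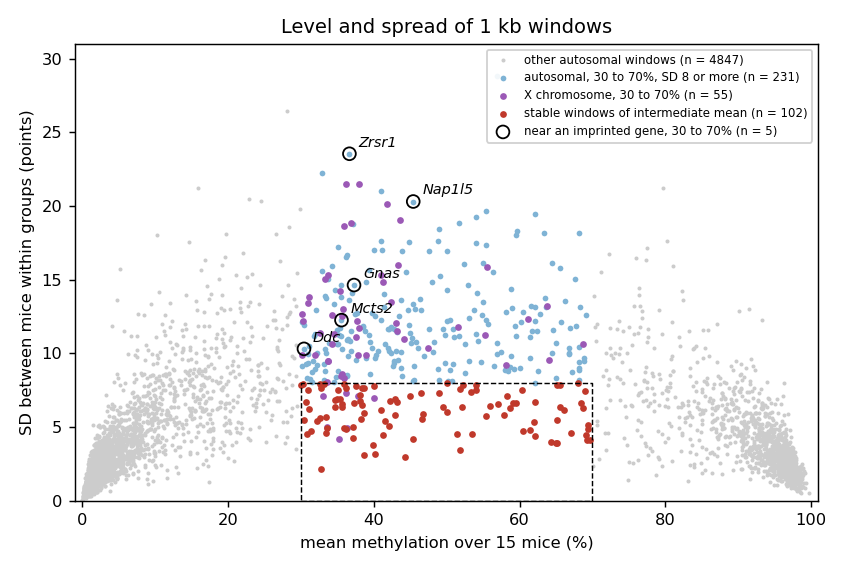
Mean methylation in percent (x axis) and within-group SD in percentage points (y axis) of each autosomal window, with the 102 stable windows marked beside the 231 windows of the same mean range and a larger SD. The stable windows fill the range of means from 30% to 70% under the SD of 8 points that the rule set.

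The sequence upstream of a gene start could be shown for stable windows that overlap one. Sequences came from RefSeq (build GRCm38.p6). The pair printed here are the 250 bases before the start of Syde1, a GTPase-activating protein of synapses, at chr10:78591965-78592214 on the minus strand, and of LOC115490388, an uncharacterised long noncoding RNA, at chr6:3182866-3183115 on the plus strand. They are shown because both overlap stable windows with many rows, by 214 and 115 bases, and because the CpGs measured there stood at different levels. Capitals mark each CG for which the stable window holds a complete row on either strand.
Syde1: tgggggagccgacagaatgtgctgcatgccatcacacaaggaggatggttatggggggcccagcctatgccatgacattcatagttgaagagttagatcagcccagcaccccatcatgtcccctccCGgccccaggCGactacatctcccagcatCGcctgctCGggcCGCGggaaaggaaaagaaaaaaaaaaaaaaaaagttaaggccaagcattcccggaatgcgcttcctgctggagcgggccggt
LOC115490388: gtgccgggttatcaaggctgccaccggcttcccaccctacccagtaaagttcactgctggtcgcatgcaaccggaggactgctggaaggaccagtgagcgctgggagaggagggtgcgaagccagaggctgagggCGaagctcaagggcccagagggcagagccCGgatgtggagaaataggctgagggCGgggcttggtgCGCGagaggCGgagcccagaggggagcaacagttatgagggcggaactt
The Syde1 stretch holds 11 CG, of which 6 had a row in the stable window, and all 6 lay between 1.33% and 6.19%. The LOC115490388 stretch holds 13 CG, of which 6 had 7 rows in the stable window, and these rows lay between 25% and 73.5%. Over 32851 RefSeq promoter sequences the median number of CG in the same 250 bases was 6, and 35.6% held 11 or more while 31.5% held 13 or more. The motif CCGG, the RRBS cutting site, occurred 3 times before Syde1 and 4 times before LOC115490388, and 47.1% of all promoter sequences of that length held it at least once.

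Beyond the printed stretch the Syde1 window (chr10:78592001-78593000, 13 rows, mean 35.9%) changed level along its length. After the 6 sites of the promoter came 1 site at 22.2%, and the remaining 6 sites lay between 57.9% and 76.7%. Its level in the standard mice was 46.4%, 26.9%, 34.7%, 42.4% and 35.3%, in the enriched mice 30.96%, 39.1%, 32.2%, 34.0% and 29.6%, and in the withdrawal mice 38.5%, 36.0%, 35.6%, 36.5% and 40.3%. The ranges of the 3 groups overlapped. In the LOC115490388 window (chr6:3183001-3184000, 12 rows, mean 42.1%) 11 of 12 sites lay between 20% and 80%, and 1 site was at 8.43%.

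The smallest SD of all belonged to a window inside Zfp61 and beside a boundary of Zfp94, both zinc finger protein genes (chr7:24301001-24302000, mean 32.7%, SD 2.18 points). It held 4 sites between 0% and 5.79% and 2 sites at 92.3% and 97.8%, and none between. The level in the standard mice was 34.7%, 33.2%, 30.2%, 33.3% and 31.8%, in the enriched mice 33.3%, 35.0%, 32.6%, 28.4% and 31.4%, and in the withdrawal mice 35.6%, 33.1%, 34.0%, 34.7% and 29.6%. All 15 mice lay within a few points of each other, and the groups overlapped. Clvs1, which encodes a lipid-binding protein of clathrin-coated vesicles, had the same arrangement in a window inside the gene (chr4:9185001-9186000, mean 40.2%, SD 3.17 points). There, 3 sites lay between 6.25% and 10.3%, and 2 sites at 82.8% and 94.3%. Near the pseudogene Gm9002 (chr10:117434001-117435000, mean 51.8%, SD 3.46 points) 3 sites lay between 96.0% and 98.9% and 3 between 3.601% and 7.71%. With a window in or near S1pr5, a sphingosine phosphate receptor gene, these were the 4 stable windows that held low and high sites and no other.

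The other windows of smallest SD mixed levels in other ways. A window over Prpf38a, a splicing factor gene, and Orc1, which encodes a subunit of the origin recognition complex (chr4:108578001-108579000, mean 39.8%, SD 3.76 points), ran from 4 sites between 65.5% and 88.5% to 5 sites between 1.36% and 18.2%, and the next window on its right was at 1.79%. At a boundary of Ccnd2, which encodes cyclin D2 (chr6:127125001-127126000, mean 65.1%, SD 3.91 points), sites lay between 28.2% and 90.6%. Inside Synpo, the gene of the dendritic spine protein synaptopodin (chr18:60652001-60653000, mean 65.1%, SD 3.94 points), 1 site was at 8.18% and the other 4 lay between 72.1% and 89.9%. A window beside Arhgap25, a GTPase-activating protein gene (chr6:87535001-87536000, mean 38.6%, SD 3.09 points), had 1 site at 17.8% and its highest at 58.1%. A window with no gene within 5 kb (chr5:119389001-119390000, mean 44.2%, SD 3.005 points) ranged from 5.77% to 84.9%.

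**Figure D2:**
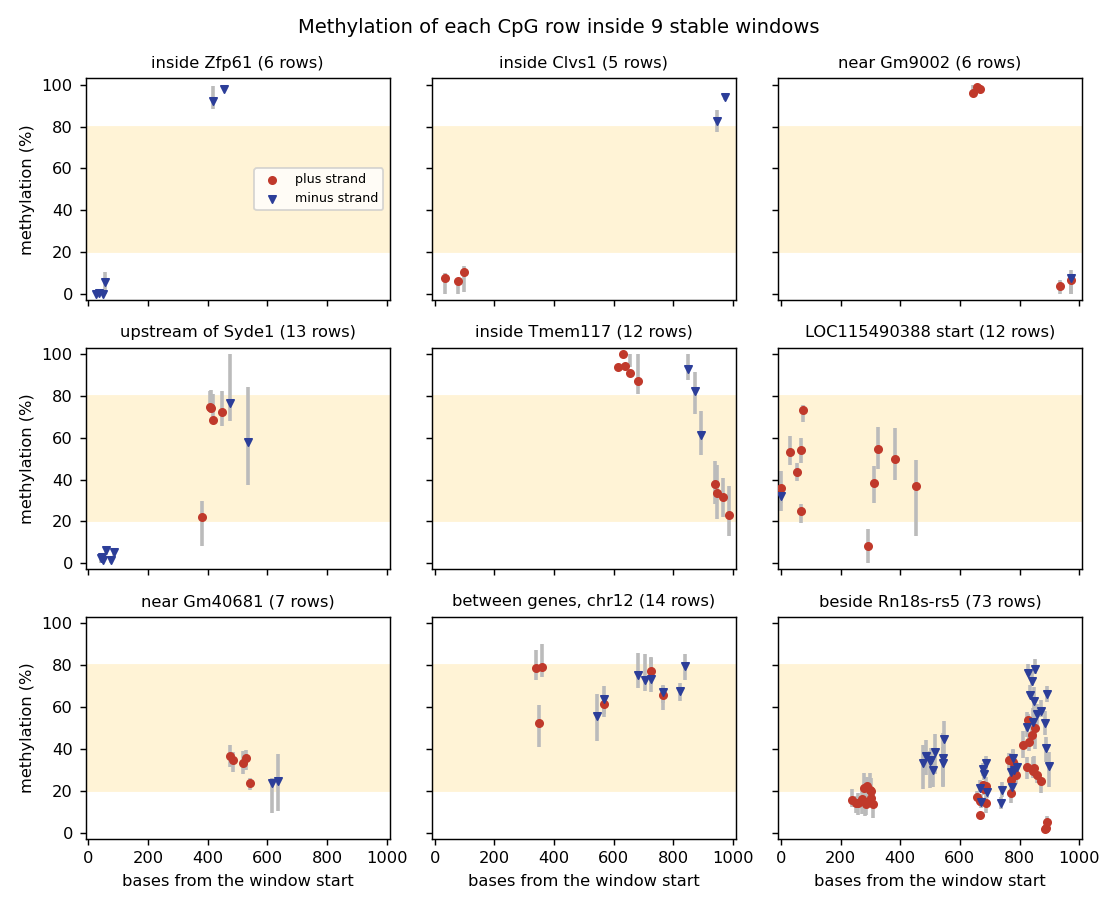
Methylation in percent (y axis) of each complete CpG row against its distance in bases from the window start (x axis) in 9 stable windows, as the mean over 15 mice with a bar from the lower to the upper quartile over the mice, and with the range from 20% to 80% shaded. In the windows at Zfp61, Clvs1 and Gm9002 every point lies outside the shaded range, while in the chr12 window and near Gm40681 every point lies inside it.

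In the 30 stable windows with both low and high sites, the low sites lay apart from the high ones along the DNA in 24, which include 4 windows with 1 site of each kind, where no other order is possible. Of the 12 windows with at least 2 sites of each kind, 11 had them apart. Low and high sites also lay apart in all 19 variable windows and the 1 X window with both kinds, so this order does not set the stable windows apart. Of these, 5 variable windows and the X window held 1 site of each kind. Only 3 variable windows held at least 2 of each. In the 24, the gap between the last site of one kind and the first of the other was 278 bases at the median (23 to 847). The low sites of a window had a median of 8.58% and the high sites of 88.7%. In the window inside Tmem117, a membrane protein gene (chr15:94655001-94656000, 12 rows, mean 69.1%), the level fell along the DNA without reaching the low class. The first 7 sites lay between 82.5% and 100%, the next at 61.4% and the last 4 between 23.2% and 37.8%, and the next window on the right stood at 22.5%.

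Sites that were themselves intermediate made up the smaller class of 17 windows. The 1 window with every site between 30% and 70% lay inside Rbm19, an RNA-binding protein gene of the nucleolus (chr5:120145001-120146000, mean 55.3%, SD 5.77 points), with 5 sites from 37.3% to 67.5%. The others included windows inside Wnt7a, which encodes a secreted Wnt ligand (mean 42.9%, sites 23.3% to 65.0%), inside Akap6, an anchoring protein gene for protein kinase A (mean 42.3%, sites 23.1% to 76.1%), and inside Slc14a2, a urea transporter gene (mean 41.1%, sites 22.2% to 64.6%). These were chosen for mention after their values were seen. Between genes on chr12 (chr12:20231001-20232000, mean 69.3%, SD 5.14 points) 14 sites lay between 52.5% and 79.6%.

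The stable windows were set beside 231 autosomal windows of the same mean range with an SD of 8 points or more, called variable windows, and beside 55 windows of that range on the X chromosome, of which 1 copy is inactivated in each female cell. Every site lay between 20% and 80% in 96 (41.6%) of the variable windows and in 27 (49.1%) of the X windows, against 16.7% of the stable ones. Low and high sites met in 19 (8.23%) of the variable and 1 (1.82%) of the X windows, against 29.4%. Of all autosomal windows with a mean of 30% to 70%, 61.2% of those with low and high sites were stable, but 15.04% of those with intermediate sites alone. On the X, 7 of 55 windows (12.7%) had an SD under 8 points, against 30.6% of the autosomal ones. These shares are descriptions and were not tested, because a site near 0% or 100% has little room to vary and so enters the SD that the rule used. The sets also differed in the DNA that their complete rows covered. The median span was 203.5 bases in stable, 122 in variable and 96 in X windows, and the median number of rows 6, 5 and 6. The part of span and row number in these shares was not tested.

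**Figure D3:**
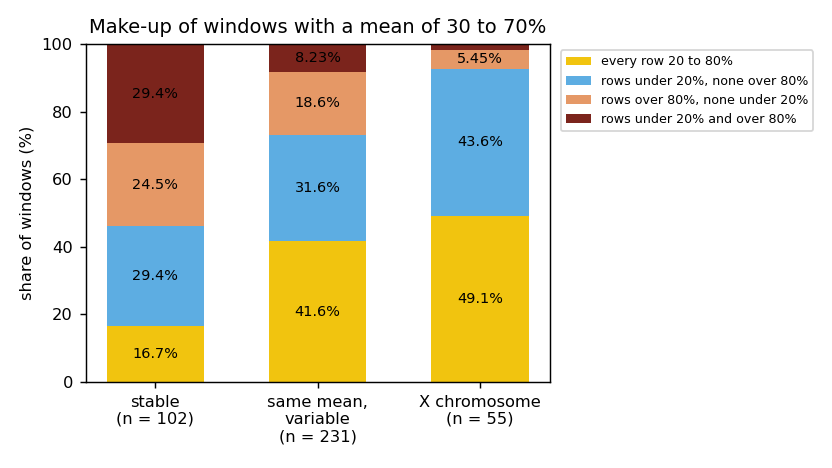
Share of windows in percent by the levels of their sites, for stable, variable and X chromosome windows with a mean between 30% and 70%. Windows with every site between 20% and 80% make up 16.7% of the stable, 41.6% of the variable and 49.1% of the X windows.

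The spread of single sites was also measured, although it shares its data with the rule. Intermediate sites had a median SD of 13.2 points over the 15 mice in stable and 19.2 points in variable windows, low sites 8.53 and 13.8 points, and high sites 9.49 and 14.1 points. Within a stable window the deviations of its sites from their group means had a mean pairwise correlation of 0.05 across the 15 mice at the median, against 0.24 in variable and 0.28 in X windows. The sites of a window share a library and often a read, so these correlations are descriptions. The number of rows averaged also moved with the choice. Of the windows of intermediate mean, 25.8% were stable at 5 rows, 33.7% at 6 or 7, 38.7% at 8 or 9 and 47.4% at 10 or more. The part of depth and row number in the small SD was not tested.

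Rows left out of a window's mean because some mice lacked them gave a check on how far the mean stood for the whole window. In 62 stable windows such rows existed, and their mean differed from that of the complete rows by 18.3 points at the median, against 12.9 points in 119 variable and 6.95 points in 36 X windows. It lay between 30% and 70% in 27 (43.5%) of the 62. Such rows were few, with a median of 1 per window over all stable, 1 over all variable and 4 over all X windows. The complete sites of a window also differed among themselves, by a median SD of 23.6, 16.9 and 10.1 points. The part of row number and site spread in the differences was not tested. Where a neighbouring window held at least 3 complete rows, which was so for 12 neighbours of 10 stable windows, 6 neighbours lay under 20%, 5 between 20% and 80%, and 1 above 80%. The high one, at 92.4%, adjoined the window at the start of Krt18, a keratin gene, whose own sites ranged from 3.95% to 82.8%. Cytosines outside CpG in the stable windows had a median level of 0.851% (0.268% to 2.86%).

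Opposite strands of the same CpG had both been measured at 74 CpGs of 31 stable windows, and their levels differed by 6.24 points at the median. A pair of windows on chr17 stood apart here. One lies beside and the other partly inside Rn18s-rs5, annotated as a pseudogene of 18S ribosomal RNA (chr17:39846354-39848202), and both lie within 5 kb of AY036118, a long noncoding RNA. Ribosomal RNA genes exist in many near-identical copies, so reads placed here may come from other copies and these values are uncertain. In these windows 35 CpGs had a median strand difference of 10.7 points, 16 of them differed by 20 points or more, and the largest difference was 61.4 points, with the plus strand at 4.85% and the minus strand at 66.2%. At the other 39 CpGs, in 29 windows, the median difference was 4.21 points, the largest 19.13 points, and 32 differed by under 10 points.

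The chr17 windows were also those with the most rows. The window chr17:39844001-39845000 (73 rows, mean 31.4%, SD 4.71 points) had sites from 1.52% to 78.4%, and chr17:39846001-39847000 (53 rows, mean 33.4%, SD 4.61 points) from 2.82% to 90.2%. The first was at 35.8%, 36.2%, 26.2%, 23.9% and 32.5% in the standard mice, at 40.7%, 26.2%, 33.2%, 33.5% and 32.3% in the enriched mice, and at 29.8%, 30.8%, 25.3%, 32.8% and 32.1% in the withdrawal mice. The groups overlapped. The other 4 windows of this stretch had means of 29.3%, 17.3%, 19.98% and 17.8%, and so fell outside the range of 30% to 70%.

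Imprinted genes were looked up because their control regions are the textbook case of a level near the middle. From 3 lists of 68 imprinted genes, 67 were matched in RefSeq, and 21 of these had a measured window within 5 kb, giving 16 windows. None of the 16 was stable, against 102 of all 5180 autosomal windows, and the count was also 0 within 1 kb and within 20 kb. Among the 16 windows, 5 had a mean between 30% and 70%, and each of these varied more than the rule allowed. Of all autosomal windows in that mean range, 30.6% were stable. Counts of 0 among 16 and among 5 are therefore too small to set imprinted genes apart. The window at Nap1l5, an imprinted retrogene inside Herc3 (chr6:58906001-58907000, 5 rows), had a mean of 45.4% and an SD of 20.3 points, from 0% in 1 enriched mouse to 67.1% in 1 standard mouse. Within a mouse its sites differed by an SD of only 1.32 points at the median, and their mean correlation across mice was 0.93.

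The window at Zrsr1, an imprinted retrogene inside Commd1 (chr11:22972001-22973000, 8 rows), had site means of 30.1% to 39.0%, a mean of 36.7% and an SD of 23.6 points. It stood at 20.4%, 54.1%, 12.8%, 50.8% and 34.4% in the standard mice, at 36.9%, 29.2%, 4.65%, 49.97% and 62.96% in the enriched mice, and at 8.41%, 16.7%, 81.9%, 37.1% and 49.5% in the withdrawal mice. Each group thus held mice far below and far above the overall mean. The window in Gnas, which encodes the stimulatory G protein alpha subunit (chr2:174328001-174329000, 10 rows), had a mean of 37.3% and an SD of 14.6 points, with mice from 11.1% to 66.1%. Mcts2, an imprinted retrogene inside H13 (chr2:152687001-152688000, 12 rows), had a mean of 35.6% and an SD of 12.3 points. Ddc, the gene of dopa decarboxylase (chr11:11893001-11894000, 6 rows), had a mean of 30.4% and an SD of 10.3 points. The contrast with the stable windows is one of site make-up and spread as measured, and its cause was not tested. The part in spread follows from the rule, which kept only windows with an SD under 8 points.

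Genes that mark cell types had few windows. Of 11 genes of granule cells and other neurons and of 16 genes of glia, vessels and microglia, windows within 5 kb numbered 5 and 3. In each list 1 window had a mean of 30% to 70%, at Rbfox3 (SD 12.4 points), the gene of the neuronal nuclear protein NeuN, and at Aldh1l1 (SD 11.3 points), an astrocyte gene. Neither was stable, against 30.6% stable among all autosomal windows of that mean range. Genes of the germ line that are silenced in other tissues had no measured window within 5 kb. The cell make-up of the samples could not be read from these windows.

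By position, 19 stable windows (18.6%) lay within 1 kb of either boundary, start or end, of a protein-coding gene, 35 (34.3%) inside one and 48 (47.1%) between genes. The shares were 12.99%, 45.02% and 41.99% in variable windows, and 44.7%, 24.96% and 30.4% in all 5180. A transcription start lay in 4 (4.17%) of the 96 stable windows with a known distance, in 26.6% of all autosomal windows and in 47.3% of the X windows. The 4 starts were those of LOC115490388, Krt18, Tmprss2, a transmembrane serine protease gene, and Gm30346, a long noncoding RNA gene whose start lies in the window upstream of Syde1 (Gm30346, chr10:78592041-78597282). The median distance to a start was 19.4 kb for stable, 17.7 kb for variable and 4.35 kb for all windows. No gene lay within 5 kb of 25 (24.5%) stable windows. Every autosome held at least 1 stable window, with the most on chr15 (12), chr5 (11) and chr10 (11) and 1 on chr19.

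A pair of stable windows lay in the clustered protocadherin genes of chr18, which encode cell adhesion proteins that differ from neuron to neuron. This was 1.96% of the stable windows, against 2.17% of the variable ones (5 of 231) and 0.405% of all 5180. Their means were 65.2% (sites 16% to 90.04%) at Pcdhgb5 and its neighbours and 57.0% (sites 19.96% to 97.4%) near Pcdhb1. A transfer RNA gene lay within 5 kb of 3 stable windows (2.94%), of 0 variable ones and of 67 of all 5180 (1.29%). These groups were noticed in the data and were not tested.

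Thresholds set the edges of the class. Just inside the SD of 8 points were windows at Nln (7.98 points) and Gm13238 (7.98 points), and just outside was that at Isca1 (8.004 points). At the lower mean, windows at Sh3rf1 (30.04%) and Gm40681 (30.3%) were kept, and windows at Rn18s-rs5 (29.3%) and Fbxl16 (29.5%) were not. At the upper mean, windows at Ebf3 (69.4%) and on chr10 (69.7%) were kept, and windows at Gm17514 (70.1%) and H2bc6 (70.6%) were not.

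**Figure D4:**
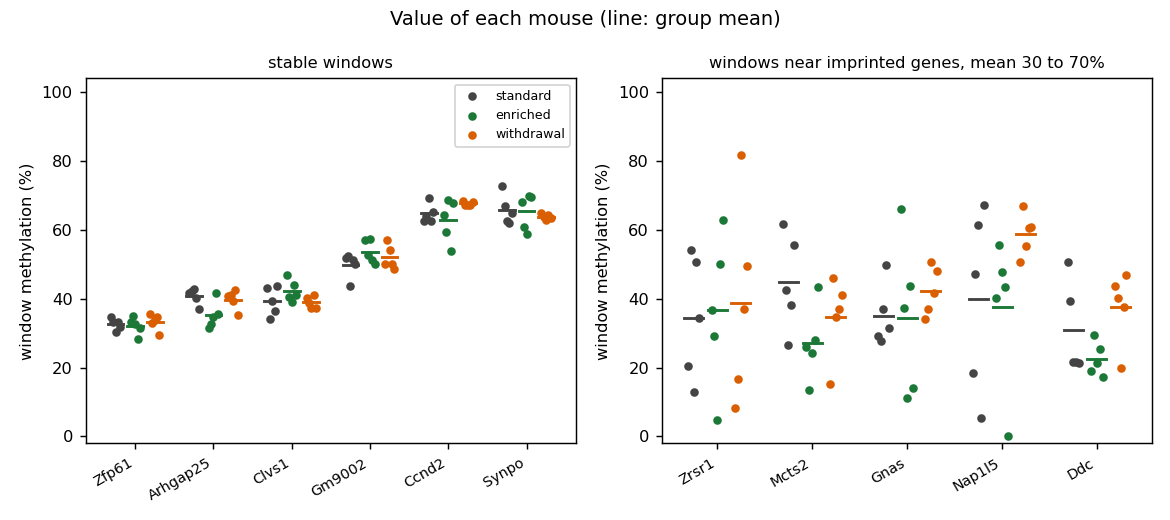
Window methylation in percent (y axis) for each of the 15 mice by housing group, in 6 stable windows and 5 windows of intermediate mean at imprinted genes. The 6 are those at Zfp61, Arhgap25, Clvs1, Gm9002, Ccnd2 and Synpo, from the 8 stable windows of smallest SD. In the stable windows the mice of all groups lie close together, and at Nap1l5 they run from 0% to 67.1%. The stable windows were chosen by a small SD within groups, and each imprinted window shown had an SD above the limit of that rule. The contrast in spread therefore follows from the choice of windows and is not a finding.

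Housing was compared across all windows with limma on a log ratio of the window means, with p-values adjusted by the Benjamini-Hochberg method over 3304 windows of mean 2% to 98%. All 102 stable windows were tested. At an adjusted p under 0.05, 0 of the 3304 windows (0%) and 0 of the 102 stable windows were called in each of the 3 pairwise comparisons and in the test for any difference. The smallest adjusted p among the stable windows was 0.784 when the enriched and standard mice were compared, 0.996 in each comparison of the withdrawal mice, and 0.933 in the test for any difference. The 3 comparisons share groups of mice and are not independent of each other, and the small SD that chose the windows is the error term of the test.

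Without adjustment, few stable windows had a small p, and counts this small are given beside the share of all windows as descriptions. For enriched against standard, 4 of 102 had a p under 0.05, 1 higher and 3 lower in the enriched mice, against 5.96% of all windows. For withdrawal against standard it was 1 of 102, higher in the withdrawal mice, against 4.6%. For withdrawal against enriched it was 3 of 102, 2 higher and 1 lower in the withdrawal mice, against 3.96%, and for any difference 3 of 102 against 4.81%. A difference of 10 points or more between the means of enriched and standard mice occurred in 4 of 102 stable windows, against 3.15% of all windows. It occurred in 1 of 102 between withdrawal and standard mice, against 2.6%, and in 3 of 102 between withdrawal and enriched mice, against 2.94%. The absolute difference of a stable window had a median of 3.50 points between enriched and standard mice. Between withdrawal mice and each of the other groups it was 2.75 points (standard) and 3.08 points (enriched). In the variable windows the corresponding medians were 4.50, 5.87 and 4.50 points, and over all windows tested they were 1.76, 1.62 and 1.65 points. The size of such a difference moves with the spread within groups, by which the rule parted stable from variable windows. The order of these medians is therefore not a finding about housing. Averaged over all stable windows, the standard mice were at 47.4% ± 0.865 (SD, n = 5), the enriched mice at 46.98% ± 1.40 (SD, n = 5) and the withdrawal mice at 47.8% ± 0.694 (SD, n = 5). These group means differed by no more than the SD of the enriched mice.

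For enriched against standard, the smallest p among the stable windows was at a boundary of Adamts9, a secreted metalloprotease gene (chr6:92944001-92945000). Its level was 29.3%, 34.3%, 36.1%, 33.9% and 41.1% in the standard mice, 24.7%, 26.2%, 22.0%, 13.1% and 36.1% in the enriched mice, and 36.7%, 36.2%, 39.7%, 35.3% and 37.5% in the withdrawal mice. In 4 of 5 enriched mice it lay below every standard mouse. The enriched mean was 10.5 points lower, a difference of -10.5 points with an adjusted p of 0.784 (limma). Inside Esrrb, an orphan nuclear receptor gene (chr12:86423001-86424000), the standard mice had a mean of 41.8% ± 7.53 (SD, n = 5), the enriched mice of 29.2% ± 9.12 (SD, n = 5) and the withdrawal mice of 36.6% ± 6.87 (SD, n = 5). The difference between enriched and standard mice was -12.6 points (limma, adjusted p = 0.7995), and the groups overlapped.

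For withdrawal against standard, the smallest p was inside Ebf3, which encodes a transcription factor of neuronal differentiation (chr7:137249001-137250000). The standard mice were at 67.2%, 59.02%, 58.7%, 65.1% and 66.4%, the enriched mice at 71.8%, 72.0%, 67.1%, 80.2% and 72.5%, and the withdrawal mice at 72.4%, 71.9%, 68.5%, 66.5% and 81.4%. The highest standard mouse lay just above the lowest enriched mouse and above the lowest withdrawal mouse. The difference between withdrawal and standard mice was 8.84 points (limma, adjusted p = 0.996), and that between enriched and standard mice 9.44 points (limma, adjusted p = 0.7995). The next window (chr13:36723001-36724000) lay inside Gm38636, a long noncoding RNA gene (chr13:36715696-36724162). Nrn1, the gene of neuritin, a protein induced by neuronal activity, lay outside the window but within 5 kb. In this window the standard mice averaged 25.3% ± 8.79, the enriched mice 31.9% ± 5.99 and the withdrawal mice 35.5% ± 7.51 (SD, n = 5 each). The withdrawal mice were 10.2 points above the standard mice (limma, adjusted p = 0.996).

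For withdrawal against enriched, 3 of 102 stable windows had groups that did not overlap, against 0.878% of all windows tested. Groups of small spread separate more easily, and the rule chose the windows by that spread. The count is therefore a description and not a finding about housing. A window between genes (chr1:190384001-190385000) was at 45.1%, 42.8%, 36.4%, 33.0% and 49.9% in the enriched mice and at 23.5%, 29.4%, 27.8%, 31.6% and 19.4% in the withdrawal mice. The standard mice, at 46.8%, 38.3%, 40.4%, 29.0% and 26.3%, spanned parts of both. The withdrawal mean was lower, with a difference of -15.1 points (limma, adjusted p = 0.996). The other two were LOC115490388, at 39.98% ± 3.03 (SD, n = 5) in enriched and 47.4% ± 2.88 (SD, n = 5) in withdrawal mice, and a window near Nrbp2 (chr15:76090001-76091000), at 32.6% and 42.1%. On chr11 (chr11:63412001-63413000) the withdrawal mice were 14.3 points above the enriched mice (limma, adjusted p = 0.996), with overlapping groups. The standard mice overlapped with the enriched mice in every stable window, so that 0 were separate against 0.575% of all windows. They also overlapped with the withdrawal mice in every one, 0 against 0.878%.

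**Figure D5:**
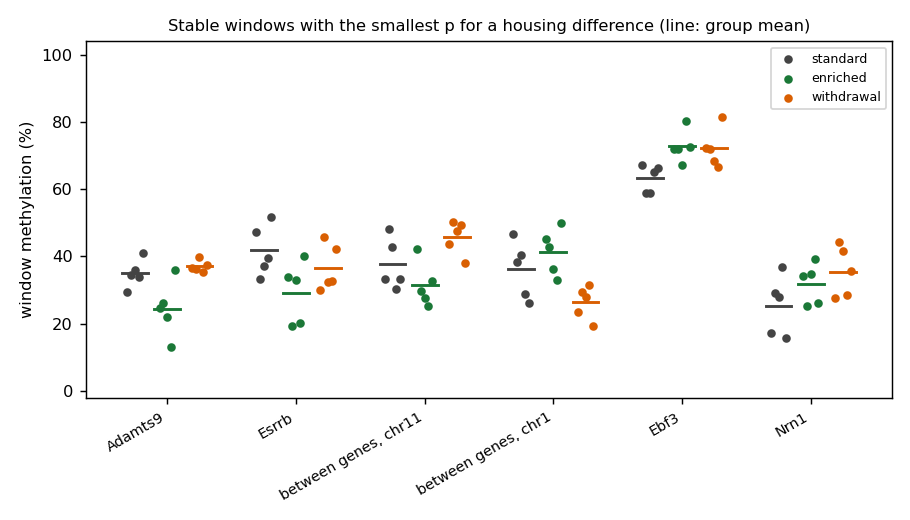
Window methylation in percent (y axis) for each mouse, by housing group, in the 6 stable windows with the smallest p of a pairwise comparison, with a line at each group mean. Only the chr1 window has withdrawal mice that all lie below the enriched mice, and no window passed the adjusted threshold.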

How the data were processed

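Genomic DNA from the dentate gyrus of 15 mice was assayed by RRBS. Per the submitters' processing notes, the tools were Trim Galore 0.4.0, cutadapt 1.8.1, Bismark 0.16.1 and methylKit 1.5.2, with build mm10; their order and settings are not given in the sources used here. The authors deposited 1 table of percent methylation per cytosine and strand, without read counts, so depth is unknown. Its rows come in 2 runs, and the first was taken as CpG: all 40617 of its positions inside RefSeq promoter sequences read CG, and 0 of 118272 positions of the second run did. Autosomal rows complete in 15 mice were averaged per 1 kb window with at least 5 rows (Python 3.11.15, pandas 2.3.3).

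Group tests used limma 3.58.1 (R 4.3.3) on log2((percent + 5)/(100 - percent + 5)), with 3 group means, a trended variance prior and two-sided p-values, and were checked on simulated data. The labels number the animals of each group but give no cage or batch. Windows named in the text were, by rule, the 8 of smallest SD, the 6 with the most rows, the 2 of smallest p per comparison, those at each threshold, and those near listed genes; others are marked as noticed in the data. A gene was named for a window within 5 kb. The windows and the gene lists were chosen with earlier results of these data known. RefSeq promoters of chr18 were not used here, so 6 stable windows have no distance to a start. The result of 1 window at a threshold is not reported here.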

Additional observations from a re-analysis of the deposited data

Results flagged for a closer look

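In groups of 5 mice, a value was marked when its gap to the nearest other mouse took up an unusually large part of the group's range, which chance gives in about 1 of 20 groups. Of 63 groups checked among the named windows and the means over the stable windows, 2 were marked. In the window near Gm9002 (chr10:117434001-117435000), standard mouse 3 was at 43.75%, and the other 4 standard mice lay between 50% and 52.4%. In the window between genes on chr12 (chr12:20231001-20232000), withdrawal mouse 2 was at 64.86%, and the other 4 withdrawal mice lay between 71.4% and 73.4%.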

How the results depend on the processing

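The number of stable windows followed the thresholds. It was 329 with at least 3 rows per window and 9 with at least 10, 45 with an SD cap of 6 points and 168 with one of 10, 37 for a mean of 40% to 60% and 219 for 20% to 80%. With rows that held a value in at least 4 mice of each group it was 166, of which 88 were among the 102. Windows shifted by 500 bases gave 108, averaging the strands of a CpG gave 90, and leaving out 1 mouse gave 92 to 107, with 91 to 96 of the 102 kept. Requiring sites between 30% and 70% lowered the share of windows with all sites in range from 16.7% to 0.980% and the share of sites from 66.3% to 41.4%, and windows with at least 10 rows held 69.9% of sites between 20% and 80%. Without the pair of chr17 windows at Rn18s-rs5, an alternative chosen after seeing the data, these shares were 17.0% and 64.8%.

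The count of stable windows called was 0 under every alternative run. Over all windows it was 0 to 1 when 1 mouse was left out: without enriched mouse 4, 1 window was called for withdrawal against standard (adjusted p = 0.0378) and 1 for any difference (adjusted p = 0.0369). No named difference changed sign, but these windows were picked for a small p in the same data. Settings that kept all mice left the differences in points as they were, so the signs are no check on them. With the replicate number as a block, 0 windows were called in every comparison. Same-numbered mice did not deviate together, with correlations of -0.04 to 0.04 over 15 pairs. No pairing by number was visible in these values, which cannot show how the mice were housed or processed. Depth is unknown, so counting error could not be separated from differences between mice.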
